A study of Mus musculus with 15 samples.

Results

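The 6 genes Bmp4, Bmp6, Bmp7, Tgfb1, Sfrp2 and Gfra2 encode 4 secreted ligands of the TGF-beta superfamily, a Wnt antagonist and a neurturin receptor, and they were followed in mouse olfactory epithelium after its target, the olfactory bulb, was removed. They were taken by gene symbol from the 8251 genes that had a probe set of their own on the array, which gave 9 probe sets. The samples were total RNA from olfactory epithelium of male C57Bl/6 mice aged 6 weeks, with 5 µg from each of 3 mice pooled for every array. There were 3 arrays for each of OBX (olfactory bulbectomy, removal of the bulbs) day 1, OBX day 5, OBX day 7, sham day 5 and untreated mice, 15 arrays in all. The only sham mice were those of day 5, so OBX days 1 and 7 were set against untreated mice, and a pool of 3 mice hides the spread between animals. The p-values measure the spread between these pools.

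Olfactory sensory neurons project to the bulb and die when it is lost, and basal cells of the epithelium then divide and replace them. BMPs and TGF-beta are ligands of one superfamily: they bind pairs of serine/threonine kinase receptors that phosphorylate Smad proteins, which enter the nucleus and switch target genes such as the Id genes, and BMPs can either hold back or favour neurogenesis in the olfactory epithelium depending on their dose. Secreted frizzled-related proteins such as Sfrp2 bind Wnt ligands outside the cell and keep them from their Frizzled receptors. Gfra2 is the co-receptor through which neurturin, a relative of GDNF, acts on the Ret tyrosine kinase to support neurons.

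Promoter sequence is shown for Bmp6 and Sfrp2, because these 2 genes passed the test below at different days and the promoter table holds an entry for both. The windows run from 250 bases before to 50 bases after the annotated start, 5′ to 3′ on the strand of the gene, from RefSeq on build GRCm38.p6. The Bmp6 window is chr13:38345466-38345765 on the plus strand and the Sfrp2 window is chr3:83766071-83766370 on the plus strand. The Bmp6 window spans the first base of the annotated gene, 38345716. The annotated Sfrp2 gene begins at base 83765750, so the Sfrp2 window lies inside the gene and was set from a start further downstream. Capitals mark the short Smad box CAGAC or its reverse complement.
Bmp6: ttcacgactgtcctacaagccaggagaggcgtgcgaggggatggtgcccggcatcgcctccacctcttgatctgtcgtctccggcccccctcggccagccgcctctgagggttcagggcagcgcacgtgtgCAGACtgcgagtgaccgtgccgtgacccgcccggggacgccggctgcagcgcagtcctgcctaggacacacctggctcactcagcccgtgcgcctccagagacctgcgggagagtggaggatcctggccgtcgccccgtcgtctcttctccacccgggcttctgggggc
Sfrp2: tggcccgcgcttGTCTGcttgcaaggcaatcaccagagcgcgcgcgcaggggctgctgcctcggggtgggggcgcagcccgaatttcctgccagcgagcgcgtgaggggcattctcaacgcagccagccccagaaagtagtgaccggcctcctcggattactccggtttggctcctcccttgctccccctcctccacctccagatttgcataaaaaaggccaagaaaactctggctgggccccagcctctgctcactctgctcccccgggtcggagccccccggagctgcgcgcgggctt

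Of the 6 genes, 4 had an entry, and the windows of Bmp6 and Sfrp2 held 1 Smad box each while those of Bmp4 and Tgfb1 held none. A Smad box is no rare feature, since 49.6% of the 32851 windows in the table held at least 1. GC content was 69.3% for Bmp6, 66.0% for Sfrp2, 64.0% for Bmp4 and 77.0% for Tgfb1, which placed them at the 89.5th, 83.8th, 79.7th and 97.6th percentile of all windows. The letters TATAAA, found on either strand in 13.6% of windows, and the AP-1 letters TGANTCA, found in 7.8%, occurred in none of the 4. The EBF core CCCNNGGG, present in 13.7% of windows, occurred in those of Bmp4, Tgfb1 and Sfrp2 but not in that of Bmp6. The E-box CANNTG, present in 72.3% of windows, occurred in those of Bmp4 and Bmp6 but not in those of Tgfb1 and Sfrp2. These matches describe letters only.

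The share of probe sets with a present call was 49.06% to 58.81% on the 15 arrays. The tissue's defining olfactory neuron markers were detected: 3 of 9 listed genes (Omp, Cnga2 and Adcy3) had a probe set, and all 3 were present. Their summed signal was 40699 to 45623 on OBX day 1 arrays, 8742 to 27090 on OBX day 5 arrays, 18984 to 19542 on OBX day 7 arrays, 56537 to 60244 on sham arrays and 56381 to 63818 on untreated arrays. The OBX day 5 arrays stood apart from one another more than other replicates did, with a median SD of 0.28 log2 units per probe set against 0.13 to 0.15 in the other 4 groups. On OBX day 5 arrays skeletal muscle markers summed to 1675 to 11868 and squamous keratinocyte markers to 5207 to 34261. Arrays of the other groups reached at most 2324 and 6606, so the high sums were not shared by all OBX day 5 arrays. The arrays were scanned on 2 days: all untreated and sham arrays and OBX day 1 replicates 1 and 2 on the first, and the 6 arrays of OBX days 5 and 7 together with OBX day 1 replicate 3 on the second. Scan day and group can therefore be told apart only through OBX day 1.

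Detection divided the 9 probe sets. Of them, 5 were called present on at least 3 arrays and were tested with the 7508 probe sets that met this minimum: both for Bmp4, 1 of 2 for Bmp6, the only one for Sfrp2 and 1 of 2 for Gfra2. The other 4, which include the only probe sets of Bmp7 and Tgfb1, were called present on no array. Counts of members called below are counts of probe sets, and the 5 tested stand for 4 of the 6 genes. A signal here is the deposited intensity on a linear scale, and signals of different probe sets are not comparable with each other. A change is a log2 difference ± SE from limma, with its p-value adjusted by the Benjamini-Hochberg method over all tested probe sets.

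Bmp6, a BMP ligand, was the member that fell at the later days after bulbectomy. Probe set 92372_at read 506.7, 632.0 and 459.8 on OBX day 1 arrays, 415.0, 296.0 and 201.8 on OBX day 5 arrays, 243.6, 299.6 and 336.0 on OBX day 7 arrays, 893.4, 714.1 and 692.0 on sham arrays and 896.2, 592.5 and 665.5 on untreated arrays. All 6 arrays of OBX days 5 and 7 lay below all 6 sham and untreated arrays, and OBX day 1 overlapped the untreated range. A whole group below its control was no rare pattern, seen in 16.0% of all tested probe sets for OBX day 5 against sham and 18.1% for OBX day 7 against untreated. Its detection calls thinned out in the same arrays: all 9 arrays of OBX day 1, sham and untreated were present, against 2 present and 1 marginal at OBX day 5, and 1 present, 1 marginal and 1 absent at OBX day 7.

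**Figure D1:**
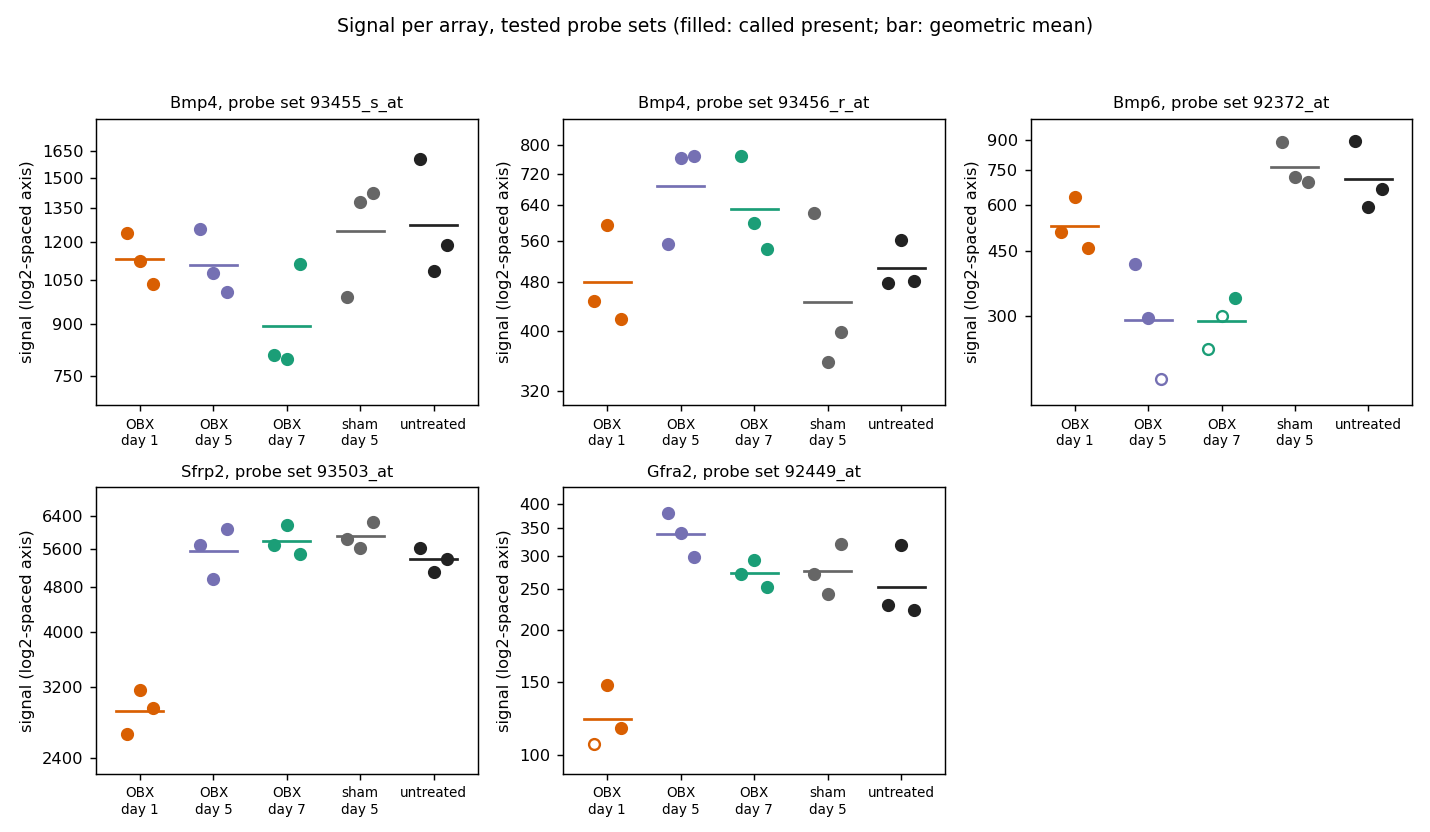
Signal per array (vertical axis, log2-spaced, in deposited intensity units) for the 5 tested probe sets, by group. Filled points were called present, open points marginal or absent, and bars are geometric means of 3 arrays. Bmp6 lies lowest at OBX days 5 and 7, and Sfrp2 and Gfra2 92449_at lie lowest at OBX day 1.

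At OBX day 5 Bmp6 was 2.61-fold lower than in sham mice (-1.38 ± 0.25, limma adjusted p = 0.0012), and it was the only member probe set called, 1 of 5 tested. Over all tested probe sets 21.0% were called in this comparison, 9.19% as lower. At OBX day 7 it was 2.43-fold lower than in untreated mice (-1.28 ± 0.25, limma adjusted p = 0.0036), again 1 of 5 members, where 13.0% of all tested probe sets were called and 6.02% as lower. Day 1 gave -0.42 ± 0.25 against untreated mice, which did not pass (limma adjusted p = 0.48). Bmp6 passed with any 1 array left out, at -1.64 to -1.12 for day 5 and -1.41 to -1.11 for day 7. With the other control the changes were -1.28 ± 0.25 at day 5 against untreated mice and -1.39 ± 0.25 at day 7 against sham mice (limma adjusted p = 0.0022 and 0.0021). With scan day as a block in the fit the changes were smaller, at -1.09 for day 5 and -0.98 for day 7, and neither passed (limma adjusted p = 0.35 and 0.61). Within the second scan day alone, the 1 OBX day 1 array read 459.8, above all 6 OBX day 5 and day 7 arrays, which read 201.8 to 415.0.

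The second Bmp6 probe set, 161028_at, ran the same way without being detected. It read 705.2, 731.3 and 608.7 on OBX day 1 arrays, 500.8, 445.9 and 420.1 on OBX day 5 arrays, 278.9, 351.0 and 343.5 on OBX day 7 arrays, 900.6, 1040.6 and 890.2 on sham arrays and 868.3, 986.1 and 910.7 on untreated arrays. It was called absent on 14 arrays and marginal on 1 sham array, so no fold is given. OBX day 1, day 5 and day 7 formed 3 ranges that did not overlap, in falling order, and all lay below both control groups. Among the 4272 probe sets that were present on no array, 11.5%, 12.6% and 18.4% lay wholly below the control at OBX days 1, 5 and 7, 6.37% were lower at OBX day 5 than at day 1 and 6.23% lower at OBX day 7 than at day 5. Log2 signals of the 2 Bmp6 probe sets had a Pearson r of 0.902 over the 15 arrays, 0.825 over the 9 OBX arrays and -0.537 over the 6 sham and untreated arrays, all sharing the same RNA per array.

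Bmp6 signal ran along with the olfactory neuron markers on the OBX arrays. Its r on the log2 scale was 0.931 with Omp, the olfactory marker protein, 0.91 with Cnga2, a subunit of the transduction channel, and 0.89 with Adcy3, the adenylyl cyclase of olfactory cilia, over 9 OBX arrays. Over the 6 sham and untreated arrays the same values were -0.472, -0.325 and -0.337. Within OBX day 5 the 3 arrays kept one order in both, with marker sums of 27090, 18171 and 8742 beside Bmp6 signals of 415.0, 296.0 and 201.8. The arrays of OBX days 1 and 7 did not keep one order. Day 1 sums were 45623, 40699 and 41533 beside Bmp6 signals of 506.7, 632.0 and 459.8. Day 7 sums were 19470, 18984 and 19542 beside 243.6, 299.6 and 336.0. In bulk tissue fewer cells of a type and less RNA per cell cannot be told apart, and the part of the markers in the fall of Bmp6 was not tested. The genes whose log2 signal was most like Bmp6 over all 15 arrays were Cmip (r = 0.965), Chga, which encodes chromogranin A of secretory granules (0.964), and Kcna5, a voltage-gated potassium channel (0.959). Within the OBX arrays these were 0.941, 0.949 and 0.955, and within the sham and untreated arrays 0.499, 0.761 and 0.048.

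**Figure D2:**
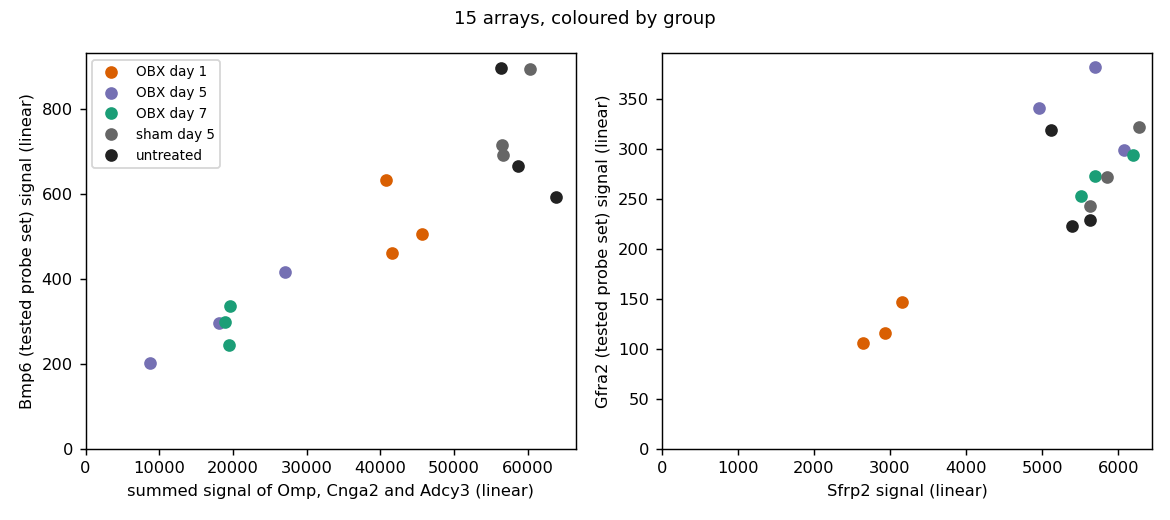
Left, Bmp6 signal against the summed signal of Omp, Cnga2 and Adcy3; right, Gfra2 92449_at signal against Sfrp2 signal; 1 point per array, coloured by group, all axes linear in deposited intensity units. On the left the OBX arrays spread along a line from 8742 to 45623 summed units; on the right the 3 OBX day 1 arrays lie apart from the other 12.

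Sfrp2, the Wnt antagonist, was low on day 1 and at control level afterwards. It read 2645.2, 3160.8 and 2932.1 on OBX day 1 arrays, 5697.0, 4958.4 and 6073.4 on OBX day 5 arrays, 5694.8, 6188.4 and 5502.6 on OBX day 7 arrays, 5844.7, 5629.4 and 6266.9 on sham arrays and 5631.3, 5111.0 and 5390.4 on untreated arrays, and was present on all 15. The highest OBX day 1 array lay far below the lowest array of any other group, 3160.8 against 4958.4. An OBX day 1 group wholly below untreated was seen in 12.0% of all tested probe sets.

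At OBX day 1 Sfrp2 was 1.85-fold lower than in untreated mice (-0.89 ± 0.10, limma adjusted p = 0.00044). It and Gfra2 were the 2 members of 5 called in this comparison, both lower, where 2.46% of all tested probe sets were called and 0.666% as lower. Against sham mice the day 1 change was -1.02 ± 0.10 (limma adjusted p = 8.3e-05). The low level was seen on both scan days, with 2645.2 and 3160.8 on the first and 2932.1 on the second. Within the first scan day the change was -0.89 (limma adjusted p = 0.0032), and with scan day as a block it was -0.89 (limma adjusted p = 0.0044). At OBX day 5 Sfrp2 differed from sham mice by -0.09 ± 0.10 and at OBX day 7 from untreated mice by 0.11 ± 0.10, and neither passed (limma adjusted p = 0.58 and 0.54).

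Gfra2, the neurturin co-receptor, had the same day as its low point in 1 of its 2 probe sets. Probe set 92449_at read 106.2, 147.1 and 116.2 on OBX day 1 arrays, 382.1, 341.5 and 298.6 on OBX day 5 arrays, 272.8, 294.5 and 253.5 on OBX day 7 arrays, 271.8, 243.5 and 321.7 on sham arrays and 229.0, 318.9 and 222.9 on untreated arrays. All OBX day 1 arrays lay below all 12 others. An OBX day 1 group wholly below the untreated group alone was seen in 12.0% of all tested probe sets. The share wholly below all 12 other arrays was not counted. The probe set was called present on 2 of 3 OBX day 1 arrays and on all 12 others.

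At OBX day 1 Gfra2 92449_at was 2.08-fold lower than in untreated mice (-1.05 ± 0.21, limma adjusted p = 0.015) and lower than in sham mice by a larger margin (-1.18 ± 0.21, limma adjusted p = 0.0053). The call against untreated mice was narrow and held in 12 of 18 alternatives. It was lost under quantile normalization (-0.97, adjusted p = 0.051), with scan day as a block (-1.02, adjusted p = 0.078), without untreated replicate 2 (-0.89, adjusted p = 0.077), without OBX day 1 replicate 1 (-0.95, adjusted p = 0.057), without OBX day 1 replicate 3 (-1.02, adjusted p = 0.075) and within the first scan day (-1.02, adjusted p = 0.08), all from limma. At day 5 it differed from sham mice by 0.29 ± 0.21 and at day 7 from untreated mice by 0.11 ± 0.21, neither past the threshold (limma adjusted p = 0.35 and 0.78).

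The other Gfra2 probe set, 92448_s_at, was called absent on all 15 arrays and did not show the day 1 low. It read 836.1, 773.4 and 636.5 on OBX day 1 arrays, 854.0, 718.4 and 684.4 on OBX day 5 arrays, 796.4, 551.7 and 817.7 on OBX day 7 arrays, 1018.0, 584.5 and 840.8 on sham arrays and 901.2, 1043.8 and 791.4 on untreated arrays. All 5 groups overlapped. The 2 Gfra2 probe sets had an r of 0.142 over the 15 arrays, so the day 1 change of Gfra2 rests on 1 probe set with low signals.

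Among all single-gene probe sets, Sfrp2 and Gfra2 92449_at were in each other's list of the 3 most alike over 15 arrays, with r = 0.899. That value came from OBX day 1: over the 12 arrays of the other groups r was 0.004. For Sfrp2 the nearest were Snai2, a zinc finger repressor of epithelial genes (0.918), and Calb1, the calcium-binding protein calbindin (0.913). For Gfra2 they were Igfbp2, a binding protein of insulin-like growth factors (0.912), and Adra2c, an alpha-2 adrenergic receptor (0.91). Marker lists were also read at OBX day 1 against untreated, each gene by its brightest tested probe set. By that rule 2.63% of all genes were called. Fibroblast markers summed to 114281 to 128975 on OBX day 1 arrays and 120375 to 126164 on untreated arrays, with 0 of 7 called, and ensheathing glia markers to 16665 to 19954 and 13934 to 19008, with 1 of 4 tested called, higher. The ranges overlapped for both of these lists but not for 5 others, 1 of which, skeletal muscle, had no gene present in either group. Sustentacular cell markers summed to 32976 to 36873 on OBX day 1 arrays and 25042 to 27631 on untreated arrays, with 1 of 4 tested called, higher. Endothelial markers summed to 4634 to 5569 and 3446 to 3783, with 1 of 5 called, higher. Macrophage markers summed to 20609 to 21142 and 15168 to 17840, with 2 of 8 called, higher, and olfactory neuron markers were lower, at 40699 to 45623 and 56381 to 63818, with 0 of 3 called and 2 at an unadjusted p under 0.05 in limma. The part of cell makeup in the day 1 low of Sfrp2 and Gfra2 was not tested.

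**Figure D3:**
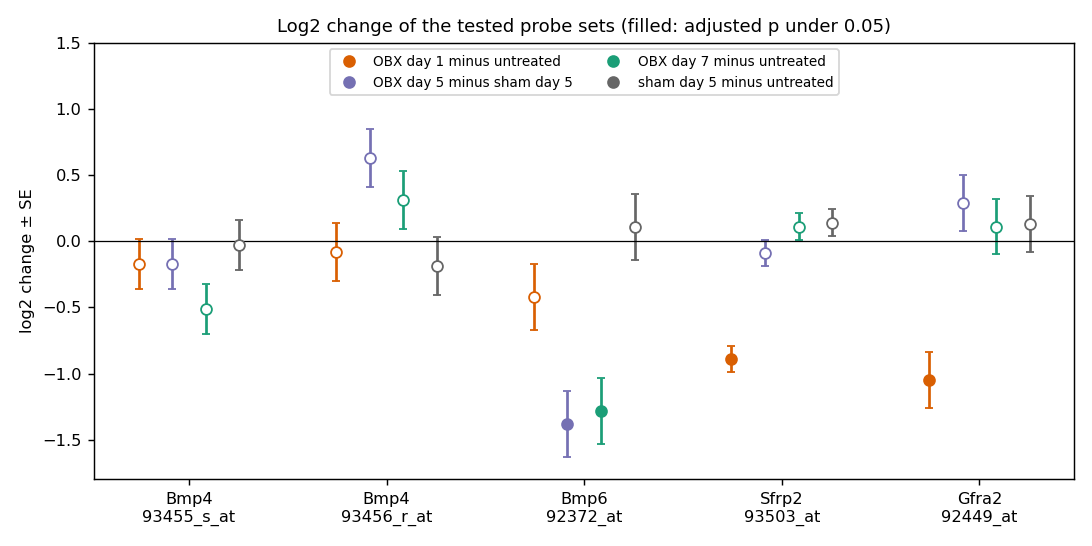
Log2 change ± SE (limma) of the 5 tested probe sets in 4 comparisons, each a group of 3 arrays minus its control group of 3 arrays. Filled points had an adjusted p under 0.05: Bmp6 at days 5 and 7, and Sfrp2 and Gfra2 at day 1; no point of sham minus untreated was filled.

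Bmp4, a BMP ligand of the same family as Bmp6, gave no change that passed in the main fit, and its 2 probe sets disagreed. Probe set 93455_s_at read 1238.0, 1122.2 and 1035.0 on OBX day 1 arrays, 1253.7, 1073.4 and 1005.1 on OBX day 5 arrays, 807.9, 796.6 and 1109.6 on OBX day 7 arrays, 988.2, 1379.7 and 1421.4 on sham arrays and 1604.1, 1083.8 and 1185.7 on untreated arrays. Probe set 93456_r_at read 446.9, 594.1 and 418.4, then 553.6, 764.3 and 767.8, then 768.5, 599.2 and 543.6 on OBX day 1, day 5 and day 7 arrays, 620.7, 357.1 and 398.6 on sham arrays and 478.6, 562.9 and 482.8 on untreated arrays. Both were present on all 15 arrays, and no OBX group of either was clear of its control group.

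The first Bmp4 probe set was lowest at OBX day 7 (-0.51 ± 0.19 against untreated mice, limma adjusted p = 0.086), and passed there in 1 alternative. For OBX day 5 against OBX day 1 the second probe set changed by 0.52 ± 0.22 (limma adjusted p = 0.18), and passed in 2 alternatives. The second was highest at OBX day 5 (0.63 ± 0.22 against sham mice, limma adjusted p = 0.059), and passed in 5 alternatives: quantile normalization (0.68, limma adjusted p = 0.043), array weights (0.85, limma adjusted p = 0.0061), fluidics run as a random block (0.61, limma adjusted p = 0.0021), and without sham replicate 1 (0.87, limma adjusted p = 0.016) or OBX day 5 replicate 1 (0.78, limma adjusted p = 0.021). Their log2 signals ran against each other, with r = -0.664 over 15 arrays, -0.456 over the 9 OBX arrays and -0.727 over the 6 sham and untreated arrays. The annotation holds a Bmp4 pseudogene, Bmp4-ps, on the X chromosome, and whether either probe set also reads it was not tested. The genes most like the first probe set over 15 arrays were Shbg, which encodes sex hormone-binding globulin (r = 0.894), Tln1, the cytoskeletal protein talin (0.856), and Ddx6, an RNA helicase (0.856).

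Tgfb1, which encodes transforming growth factor beta 1, was called absent on all 15 arrays, yet its signal divided the arrays by removal of the bulbs. Probe set 101918_at read 486.7, 654.8 and 421.2 on OBX day 1 arrays, 776.4, 391.1 and 608.0 on OBX day 5 arrays, 489.0, 429.1 and 347.2 on OBX day 7 arrays, 238.6, 96.5 and 70.7 on sham arrays and 58.0, 157.5 and 65.2 on untreated arrays. The 9 OBX arrays, at 347.2 to 776.4, all lay above the 6 sham and untreated arrays, at 58.0 to 238.6. The detection p-values divided in the same way, with 0.0604 to 0.418 on OBX arrays and 0.438 to 0.81 on sham and untreated arrays, none of them low enough for a present call.

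Because both sides were below detection, no fold is given for Tgfb1. Of the 4272 probe sets that were present on no array, 3.72% had OBX day 1 wholly above untreated, 7.19% OBX day 5 wholly above sham and 4.54% OBX day 7 wholly above untreated. In a fit with no detection filter, where 1.31%, 12.2% and 7.47% of 12422 probe sets were called at days 1, 5 and 7, Tgfb1 was called at all 3 days (limma adjusted p = 0.012, 0.0046 and 0.0068). The 2 OBX day 1 arrays of the first scan day read 486.7 and 654.8, above every control array scanned that day. Macrophages are a known source of TGF-beta 1, and their markers summed to 20609 to 21142 on OBX day 1 arrays, 30737 to 31904 on OBX day 5 arrays and 21004 to 24680 on OBX day 7 arrays, against 16338 to 19199 on sham arrays and 15168 to 17840 on untreated arrays. Of the 10 macrophage genes, Adgre1 and Aif1 were present on no array, and the part of macrophages in the Tgfb1 signal was not tested.

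Bmp7, another BMP ligand, was also called absent on all 15 arrays. Probe set 93243_at read 414.2, 694.4 and 534.8 on OBX day 1 arrays, 1075.4, 1033.8 and 907.4 on OBX day 5 arrays, 892.1, 782.9 and 892.7 on OBX day 7 arrays, 730.9, 476.4 and 665.9 on sham arrays and 544.5, 802.7 and 567.4 on untreated arrays. OBX day 5 lay above all sham and untreated arrays and above OBX day 1, while OBX day 7 overlapped the untreated range at 782.9. Of the probe sets present on no array, 6.6% lay higher at OBX day 5 than at OBX day 1 without overlap. With no detection filter, OBX day 5 against sham passed narrowly (limma adjusted p = 0.046) and days 1 and 7 against untreated did not (limma adjusted p = 0.73 and 0.24). No fold is given, since the lowest detection p-value of any array was 0.0738.

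**Figure D4:**
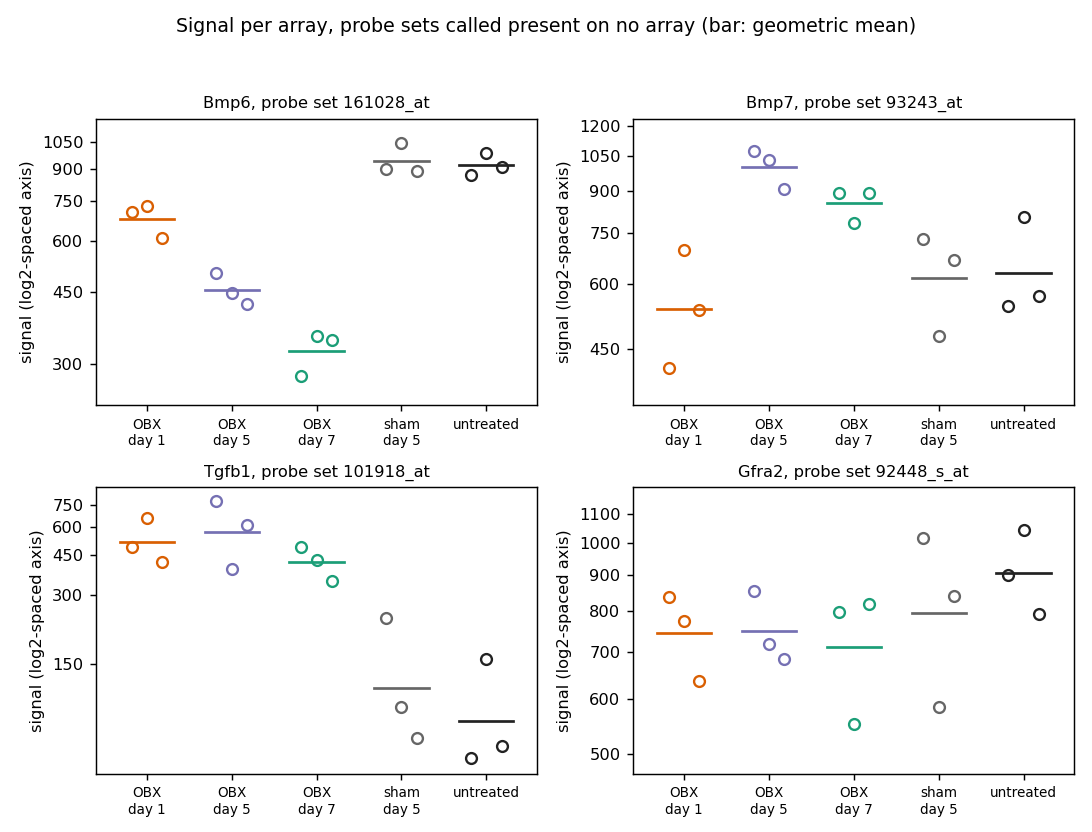
Signal per array (vertical axis, log2-spaced, in deposited intensity units) for the 4 probe sets that were called present on no array, by group, with bars at geometric means of 3 arrays. Tgfb1 lies between 347.2 and 776.4 on OBX arrays and between 58.0 and 238.6 on sham and untreated arrays; Gfra2 92448_s_at overlaps in all groups.

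At day 5, surgery without removal of the bulbs left the 5 tested member probe sets at the untreated level within the spread. Bmp7 and Tgfb1 had no tested probe set. No sham mice were taken on the other days. The part of surgery itself in the low of Sfrp2 and Gfra2 on the earliest OBX day was therefore not tested. For sham day 5 against untreated mice 0 of 5 members passed in limma, 0 had an unadjusted p under 0.05, and 0.0% of all tested probe sets were called, with 112 of 7508 at an unadjusted p under 0.05. Changes ran from -0.19 ± 0.22 for Bmp4 93456_r_at to 0.14 ± 0.10 for Sfrp2.

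Between OBX day 1 and OBX day 5 the members went opposite ways. Sfrp2 was 1.91-fold higher (0.94 ± 0.10, limma adjusted p = 9.2e-05) and Gfra2 92449_at 2.78-fold higher (1.47 ± 0.21, limma adjusted p = 0.00062) at day 5 than at day 1, and Bmp6 was 1.81-fold lower (-0.86 ± 0.25, limma adjusted p = 0.046). That made 3 of 5 members, 2 higher and 1 lower, where 7.82% of all tested probe sets were called, 3.96% higher and 3.86% lower. The ranges of days 5 and 1 did not overlap for any of the 3, as for 12.5% of all tested probe sets on the higher side and 11.4% on the lower side. With scan day as a block Sfrp2 and Gfra2 passed at 0.92 and 1.54 (limma adjusted p = 0.011 and 0.026), and within the second scan day, with 1 OBX day 1 array, neither did at the same sizes (limma adjusted p = 0.24 and 0.22).

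The Bmp6 call between days 1 and 5 was lost in 10 of 17 alternatives. Leaving out any 1 OBX day 1 array gave -0.89, -0.73 and -0.96 for replicates 1, 2 and 3 (limma adjusted p = 0.11, 0.16 and 0.074), and leaving out OBX day 5 replicate 2 or 3 gave -0.87 and -0.59 (limma adjusted p = 0.06 and 0.12). Between OBX day 5 and OBX day 7 limma called 0 of 5 members, 0 members at an unadjusted p under 0.05, and 0.0% of all tested probe sets, with 601 of 7508 at an unadjusted p under 0.05. There Gfra2 92449_at was lower on all 3 day 7 arrays than on any day 5 array, 253.5 to 294.5 against 298.6 to 382.1 (-0.31 ± 0.21, limma adjusted p = 0.58), a separation in this direction that 4.98% of all tested probe sets showed.

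Around these members, the other pathway genes were read from lists, each gene by its brightest tested probe set. By that rule 21.7% of 5740 genes were called at OBX day 5 against sham, 2.63% at OBX day 1 and 13.6% at OBX day 7 against untreated. Of 7 other BMP, TGF-beta and activin ligands tested, 1 rose at day 5, Gdf10, a BMP-related ligand. Gdf10 averaged 1291 ± 271 on OBX day 5 arrays and 708.8 ± 37.3 on sham arrays (SD, n = 3 arrays each). Its change was 0.85 ± 0.19 (limma adjusted p = 0.0059). Here and below, n counts arrays, each a pool of 3 mice, and an SD is the spread between pools. At days 1 and 7 limma called 0 of these 7, with 0 and 1 at an unadjusted p under 0.05. Of 10 receptors, 1 fell at day 5, the activin receptor Acvr2b, at 1941 ± 95.8 in OBX day 5 mice and 2561 ± 272 in sham mice (SD, n = 3 each; -0.40 ± 0.10, limma adjusted p = 0.015). At days 1 and 7 limma called 0 receptors, with 0 and 2 at an unadjusted p under 0.05.

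Of 8 extracellular modulators tested, 3 rose at day 5 and 1 at day 7. Ltbp4, which holds latent TGF-beta in the matrix, averaged 2544 ± 192 in OBX day 5 mice and 1736 ± 136 in sham mice (SD, n = 3 each; 0.55 ± 0.12, limma adjusted p = 0.0043). The follistatin-like protein Fstl1 changed by 0.40 ± 0.13 at day 5 and 0.54 ± 0.13 at day 7 (limma adjusted p = 0.045 and 0.015). The proteoglycan biglycan, Bgn, changed by 0.35 ± 0.10 at day 5 (limma adjusted p = 0.024), while its other probe set did not pass. At day 1 limma called 0 of 8, with 2 at an unadjusted p under 0.05. Markers of other tissue were also read at day 5, where 21.7% of all genes were called. Of the tested genes, 2 of 4 for bone and cartilage, 1 of 7 for fibroblasts and 2 of 5 for endothelium rose. The median changes of these lists were 0.51, 0.1 and 0.48. Among them were Alpl, an alkaline phosphatase of bone (0.69 ± 0.13), the collagen gene Col3a1 (0.64 ± 0.11) and Cldn5, a tight junction gene of endothelium (0.97 ± 0.14), with limma adjusted p = 0.0024, 0.0013 and 0.00029. Bone and cartilage markers summed to 13893 to 19612 on OBX day 5 arrays and 10356 to 11602 on sham arrays, fibroblast markers to 128588 to 147816 and 123127 to 128090, and endothelial markers to 5828 to 6554 and 3236 to 4477. Their part in the rise of the modulators was not tested. The BMP antagonists Nog, Chrd, Fst and Grem1 were on the array but below the detection minimum.

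Inside the cell, Tgif1, a corepressor of Smads, had the largest change of the 8 Smads and Smad regulators tested. It averaged 3048 ± 96 in OBX day 5 mice and 1641 ± 227 in sham mice (SD, n = 3 each; 0.90 ± 0.15, limma adjusted p = 0.00069), the only 1 called at that day. At day 7 it was 3089 ± 428 in OBX mice and 1467 ± 112 in untreated mice (SD, n = 3 each; 1.07 ± 0.15, limma adjusted p = 0.00033). There Smad2, a receptor-activated Smad of the TGF-beta branch, rose by 0.50 ± 0.14 and Smad7, an inhibitory Smad, fell (-0.61 ± 0.19), with limma adjusted p = 0.029 and 0.048. At day 1 limma called 0 of 8, with 2 at an unadjusted p under 0.05.

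The known target genes of BMP and TGF-beta moved in both directions. Of 10 tested, 3 rose and 0 fell at day 1, 4 rose and 1 fell at day 5, and 3 rose and 2 fell at day 7. Over all genes, 2.63%, 21.7% and 13.6% were called at days 1, 5 and 7 against the same controls. At day 1 the matrix gene Ccn2 averaged 2913 ± 472 in OBX mice and 1387 ± 142 in untreated mice (SD, n = 3 each; 1.06 ± 0.17, limma adjusted p = 0.0042), and Tgfbi, which encodes a TGF-beta-induced matrix protein, rose by 1.42 ± 0.32 (limma adjusted p = 0.03). The Id genes encode inhibitors of basic helix-loop-helix factors and are classic BMP targets. At day 5 Id2 changed by 0.53 ± 0.10, Id1 by 0.51 ± 0.11 and Id4 by -0.83 ± 0.11 (limma adjusted p = 0.0019, 0.0038 and 0.00011); Id3, named after its value was seen, changed by 0.42 ± 0.14 (limma adjusted p = 0.047). At day 7 Id2 again was higher and Id4 lower, by 0.54 ± 0.10 and -0.53 ± 0.11 (limma adjusted p = 0.0028 and 0.0047). Id4 averaged 6598 ± 933 in OBX day 5 mice and 11690 ± 216 in sham mice (SD, n = 3 each), so the Id family did not move as one. Markers of globose basal cells, the dividing progenitors, moved on the same days: 5 of 5 rose at day 5 and at day 7, with median changes of 0.79 and 1.0, and 0 of 5 were called at day 1, with 0 at an unadjusted p under 0.05 in limma. The globose basal cell markers summed to 9923 to 12064 on OBX day 5 arrays and 5700 to 6091 on sham arrays. They summed to 10704 to 12059 on OBX day 7 arrays and 5613 to 6160 on untreated arrays. Their part in the changes of the target genes was not tested.

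**Figure D5:**
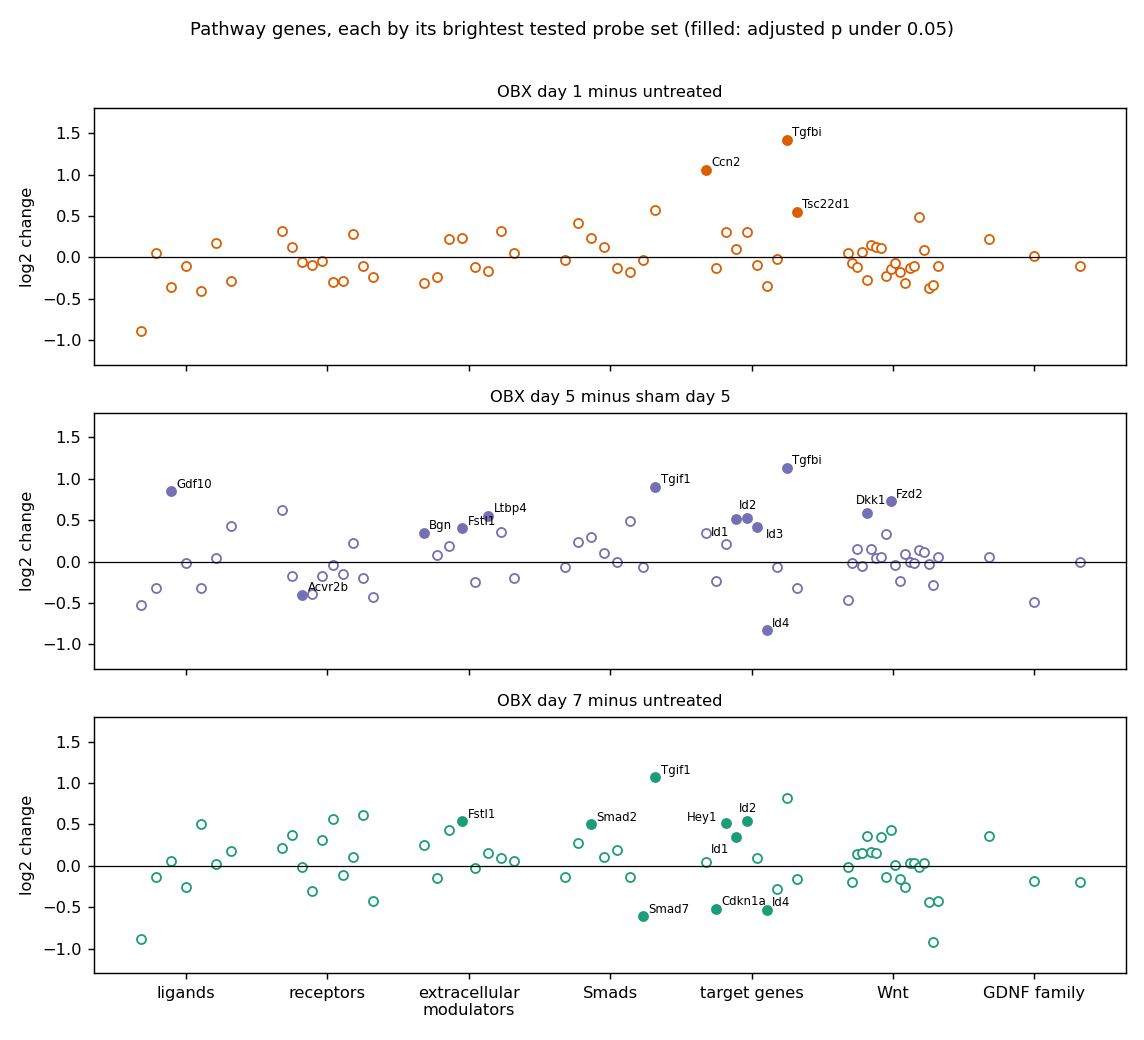
Log2 change of every tested gene of 7 pathway lists (vertical axis; genes in alphabetical order within a list), at OBX day 1, day 5 and day 7 against the control named in each panel, each group with 3 arrays. Filled, named points had a limma adjusted p under 0.05; at day 1 these were 3 target genes, at day 5 they lay in 6 of 7 lists, and the GDNF family had none.

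In the Wnt pathway, where Sfrp2 acts, 2 of 20 genes tested rose at day 5, where 21.7% of all genes were called. The median change of the Wnt list at that day was 0.04. At days 1 and 7 limma called 0 of 20, with 2 and 3 at an unadjusted p under 0.05. Fzd2, a Wnt receptor, averaged 1733 ± 374 in OBX day 5 mice and 1029 ± 98.8 in sham mice (SD, n = 3 each; 0.73 ± 0.17, limma adjusted p = 0.0071). Dkk1, an antagonist of the Wnt co-receptors, averaged 495.7 ± 38.4 in OBX day 5 mice and 331.3 ± 43.5 in sham mice (SD, n = 3 each). The change was 0.59 ± 0.16 (limma adjusted p = 0.017), and no sham array called Dkk1 present. Against OBX day 1, Fzd2 and Dkk1 were also higher at OBX day 5, by 0.86 ± 0.17 and 0.91 ± 0.16 (limma adjusted p = 0.0057 and 0.0025). No OBX day 1 array called Dkk1 present either. The median change of the Wnt list at day 1, when Sfrp2 was low, was -0.11 beside 0.01 over all genes.

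Of the GDNF family around Gfra2, 3 genes were tested, the ligand Nrtn and the receptors Gfra1 and Gfra3, and limma called 0 of them at days 1, 5 and 7, with 0, 1 and 0 at an unadjusted p under 0.05. Nrtn, which encodes neurturin, averaged 1507 ± 126 in OBX day 1 mice and 1610 ± 32.9 in untreated mice (SD, n = 3 each; -0.10 ± 0.11, limma adjusted p = 0.77), on the day when its receptor probe set was low. Gfra3, a receptor for artemin, averaged 403.4 ± 40.5 in OBX day 5 mice and 566.3 ± 24.6 in sham mice (SD, n = 3 each; -0.49 ± 0.21, limma adjusted p = 0.11). Ret, Gdnf, Artn and Pspn were on the array but below the detection minimum.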

How the data were processed

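Transcripts were measured on 15 Affymetrix MG_U74Av2 arrays. Each array's deposited intensity values are linear signals, and the authors scaled the arrays alike (trimmed mean 1500.6 to 1500.7 on all of them, from the values); the array software is not given in the sources used here. Every signal was deposited with its detection p-value and a call of present, marginal or absent. Scan day and fluidics run were read from the deposited instrument settings, which, like the calls, are other than measured values.

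Of 12488 probe sets, 66 controls were left out, and genes were named only where the platform annotation gave 1 gene (10833 probe sets; 10817 gene IDs matched the RefSeq gene table of GRCm38.p6). Signals were floored at 1 and log2 transformed. The 7508 probe sets present on at least 3 of 15 arrays were fitted in limma 3.58.1 (R 4.3.3) with 1 mean per group over all 15 arrays and a variance trend, two-sided, with Benjamini-Hochberg adjustment within a comparison and a threshold of 0.05. An SE is the moderated standard error. The array number, 3 a group, limits the precision.

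Members and lists were chosen with earlier results of these data known. All member probe sets are given; up to 4 called genes per list with the smallest adjusted p may be named, or the 2 with the smallest p, and the 3 genes with the highest r to each member's brightest tested probe set. A change against a group with no present call is given in log2 units and rests on signals below detection in that group. Alternatives covered scaling, detection filter, offset, variance trend, array weights, replicate block, scan day, fluidics run, other control, pairs of groups and each array left out. Replicate numbers were not treated as pairs. Deviations of same-numbered arrays from their group means correlated between -0.347 and 0.371. Differently numbered arrays were not set beside them, so these values cannot decide whether arrays were paired. The fit was tested on simulated data.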

Additional observations from a re-analysis of the deposited data

Results flagged for a closer look

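Between OBX day 5 and OBX day 1, with 3 arrays each, 3 member probe sets differed in limma, and 1 of these calls, that of Bmp6, was lost in 10 of 17 alternatives. The log2 differences, day 5 minus day 1, were 0.94 for Sfrp2, 1.47 for Gfra2 92449_at and -0.86 for Bmp6 92372_at, with adjusted p = 9.2e-05, 0.00062 and 0.046 from limma. Sfrp2 and Gfra2 were low only on day 1 among the 5 groups measured, on arrays of both scan days, while Bmp6 was lowest on days 5 and 7. Within the second scan day, which held 1 of the 3 day 1 arrays, the differences were 0.92, 1.54 and -0.66, and none passed (limma adjusted p = 0.24, 0.22 and 0.86).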

How the results depend on the processing

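Over all alternatives no member changed sign against a call, and of 515 values for single members 486 kept their side of the threshold, 20 lost the call and 9 gained one. The number of members called at OBX day 5 against sham, 1, became 2 under quantile normalization, array weights and fluidics run as a random block, 4 of 9 with no detection filter and 0 with scan day as a block, and was 1 to 2 with 1 array left out. At OBX day 1 against untreated, 2 became 1 under quantile normalization, with scan day as a block and within the first scan day, 3 with fluidics run as a random block and 3 of 9 with no detection filter, and was 1 to 2 with 1 array left out; Sfrp2 passed in all 18 alternatives and Gfra2 in 12. At OBX day 7 against untreated, 1 became 3 of 9 with no detection filter, 0 with scan day as a block and 2 with fluidics run as a random block, and was 1 with any array left out. Between OBX days 5 and 1, 3 became 0 within the second scan day, where 1 day 1 array remained and was assumed to vary like the others, and was 2 to 3 with 1 array left out. With the replicate block the counts of 1, 2, 1, 0, 3 and 0 stood. Over all probe sets, array weights moved the counts of 1578, 185, 978 and 587 called at day 5, day 1, day 7 and between days 5 and 1 to 2383, 992, 2245 and 893, fluidics run as a random block to 3847, 1492, 3083 and 1550, scan day as a block to 65, 50, 13 and 116, and fits of the 2 groups alone to 469, 454, 1711 and 80; within the second scan day the last was 3. With 1 array left out, day 1 gave 50 to 130, day 7 gave 559 to 677, and days 5 and 1 gave 339 to 835. The 0 calls of sham against untreated became 2 with array weights and 1 without untreated replicate 3, and the 0 of day 7 against day 5 became 979 with fluidics run as a random block and 14 without OBX day 5 replicate 2. Why these counts moved was not tested. Probe sets below detection limit what can be said of Bmp7 and Tgfb1.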
